A study of Mus musculus with 4 samples.

Results

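The genes described here are 10 regulators and markers of the cartilage and bone lineages: the cartilage transcription factor genes Sox9, Sox5 and Sox6, the Runt factor genes Runx1 and Runx2, the homeobox gene Dlx2, the bone cell products Alpl, Spp1 and Tnfrsf11b, and the receptor gene Pth1r. Their probe sets were taken by gene symbol from the platform annotation. Of the 10 genes, 8 were matched to 18 probe sets, out of 22690 on each array, and Runx2 and Spp1 were not analysed here because no probe set carried their symbol in that annotation.

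RNA came from CH10T1/2 cells, a mouse embryonic fibroblast line that can be driven towards cartilage, bone, fat or muscle in culture. It was hybridised to 4 Affymetrix 430A 2.0 mouse arrays, with 1 array per group. The WT line carries a stably transfected wild-type PTHR1, and the R150C line carries the PTHR1 variant found in enchondromas, which are benign cartilage tumours. After a night without serum, each line received PTHrP at 1e-07 M for 1 h, or carrier, although the labels call the WT sample a control and no more. Each receptor is represented by 1 transfected line, so receptor and line cannot be told apart, and the labels do not say whether a line is a single clone, which promoter drives the receptor, or how much receptor the parent cells make.

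PTHrP acts through PTH1R, a receptor coupled to Gs and cAMP, and in the growth plate it keeps chondrocytes proliferating and holds back their hypertrophy. Sox9 is the master factor of the chondrocyte lineage and works with Sox5 and Sox6 on cartilage matrix genes. Runx2, and in part Runx1, drive osteoblast and hypertrophic programmes, and bone-forming cells then make alkaline phosphatase (Alpl), osteopontin (Spp1) and osteoprotegerin (Tnfrsf11b), the decoy receptor that blocks the osteoclast signal RANKL.

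The sequences below are shown because Dlx2 had the largest fitted line difference among the 6 member probe sets tested and Runx1 has 2 listed start sites, whose windows differ in the motifs they hold. RefSeq (GRCm38.p6) gave start site windows, 250 bases before to 50 after, for 8 of the 10 genes and none for Sox9 and Tnfrsf11b. Capitals mark matches, on either strand, to a Runx motif (TGTGGT), a CRE core (TGACG, to which CREB binds), an AP-1 site (TGANTCA), a Sox core (ACAAT), a homeodomain core (TAATTA) or a GC box (GGGCGG). All 3 windows are on the minus strand and run 5′ to 3′: Dlx2 at chr2:71546705-71547004, the distal Runx1 start at chr16:92826025-92826324 and the proximal Runx1 start at chr16:92697280-92697579.
Dlx2: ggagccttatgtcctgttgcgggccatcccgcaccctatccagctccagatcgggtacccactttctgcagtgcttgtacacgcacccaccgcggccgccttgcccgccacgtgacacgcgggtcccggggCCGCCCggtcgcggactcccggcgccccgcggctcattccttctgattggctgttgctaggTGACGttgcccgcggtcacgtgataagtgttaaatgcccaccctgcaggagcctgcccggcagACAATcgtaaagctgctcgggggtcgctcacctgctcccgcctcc
Runx1 distal: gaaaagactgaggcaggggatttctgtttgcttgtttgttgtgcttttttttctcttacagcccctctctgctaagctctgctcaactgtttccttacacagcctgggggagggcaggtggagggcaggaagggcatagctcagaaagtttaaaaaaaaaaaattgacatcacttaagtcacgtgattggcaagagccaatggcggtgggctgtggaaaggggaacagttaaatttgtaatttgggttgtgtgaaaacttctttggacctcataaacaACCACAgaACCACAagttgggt
Runx1 proximal: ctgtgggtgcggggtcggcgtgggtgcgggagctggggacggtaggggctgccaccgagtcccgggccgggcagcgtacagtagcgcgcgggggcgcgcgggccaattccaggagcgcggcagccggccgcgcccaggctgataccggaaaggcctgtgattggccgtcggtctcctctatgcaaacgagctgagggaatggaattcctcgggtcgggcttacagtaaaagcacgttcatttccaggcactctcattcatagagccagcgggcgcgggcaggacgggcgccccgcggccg

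The Dlx2 window held 1 CRE core, 54 to 58 bases before the start, 1 GC box on the opposite strand and 1 Sox core. The distal Runx1 window held 2 Runx motifs, both on the opposite strand and after the start, while the proximal window held a match to none of the 6 motifs. Of 32851 mouse windows of this length, 16.8% held the Runx motif, 20.8% the CRE core, 7.81% the AP-1 site, 31% the Sox core, 5.29% the homeodomain core and 35.7% the GC box. A match describes letters in the window and was not tested as a binding site.

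Each value below is a deposited signal, a fluorescence intensity on a linear scale. Differences were taken between log2(signal + 16) values of centred arrays, and they understate the change of dim probe sets. A probe set passed the filter when its mean on that scale reached the median of all probe sets, which stands for a signal of 46.8. By this rule 6 of the 18 member probe sets, from Sox9, Runx1, Tnfrsf11b and Dlx2, were tested. The test was limma's additive model of line and treatment, with Benjamini-Hochberg adjustment over all 11313 probe sets past the filter, and it is called passed at an adjusted p under 0.05. It has 1 residual degree of freedom, the departure from additivity, so its p-values measure only the spread among these 4 arrays. To this limma adds a prior of 30.9 degrees of freedom, estimated from all 11313 probe sets. Each SE below is thus drawn largely from other probe sets and is not the spread of that gene alone. Single differences between 2 arrays have no test. Their spread was estimated from the same departure at 0.29 (SD, log2) for probe sets past the filter and 0.39 for those below it.

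As a check of the cell type, 17 of 19 probe sets of 11 fibroblast genes passed the filter. They came from 9 of these genes, while Lum and Dcn had no probe set past the filter. The summed signal of the 19 lay between 43675.5 and 54048.7 on the 4 arrays. By the test above, 5.4% of all probe sets tested were called higher in the R150C line and 4.54% lower. Of the 17 fibroblast probe sets, 1 of Fn1 was higher (0.89) and 1 each of Pdgfra (-0.57) and Col3a1 (-0.63) lower. Of these 3 calls that of Fn1 held in all 4 scalings, while the adjusted p by limma reached 0.113 for Pdgfra and 0.0806 for Col3a1, and another Fn1 probe set differed by 0.05. The summed signals of the marker lists of other cell types lay between 369.0 and 458.9 for macrophages (10 probe sets), 121.7 and 185.5 for endothelium (7) and 168.0 and 234.6 for epithelium (10). They lay between 404.4 and 520.8 for adipocytes (13) and between 158.1 and 280.6 for muscle (9). None of the 9 probe sets past the filter in these 5 lists passed for line or for PTHrP. Of all probe sets tested, 9.94% were called for line and 0.955% for PTHrP, so the absence of calls among 9 is near these shares. The beta-actin control's ratio of 3' to 5' signal, a measure of RNA integrity, was 1.42 on the WT control array and 2.39, 2.13 and 2.31 on the WT PTHrP, R150C control and R150C PTHrP arrays. In the same order of arrays after WT control (0.845), the Gapdh control's ratio was 1.17, 0.991 and 1.21. The beta-actin ratio was thus lowest on the WT control array, both ratios were higher with PTHrP in each line, and the part of RNA quality in the differences below was not tested. As a measure of background, 27 Bacillus control probe sets read between 0.2 and 26.4 on the 4 arrays.

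**Figure D1:**
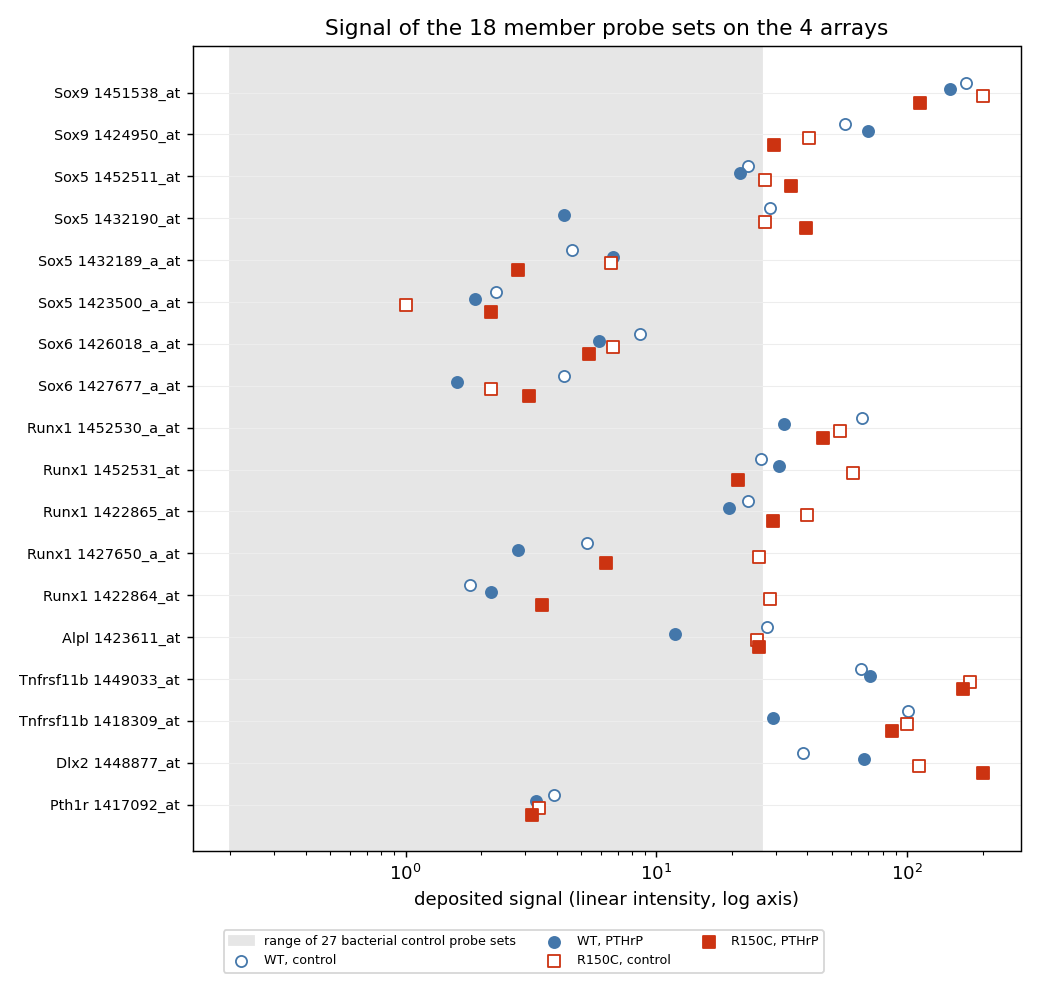
Deposited signal (log axis) of each of the 18 member probe sets, with circles for the WT line and squares for the R150C line, open for control and filled for PTHrP, against the range of the 27 Bacillus control probe sets in grey. Dlx2 is lowest in the WT control array at 38.6 and highest in the R150C PTHrP array at 200.5, and 5 probe sets, of Sox5, Sox6 and Pth1r, lie inside each array's control range on all 4 arrays.

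Dlx2 encodes a homeodomain transcription factor of the craniofacial and limb mesenchyme that is known from osteoblast and cartilage differentiation. Its probe set, 1448877_at, read 38.6 in WT cells without PTHrP and 67.3 with it, then 111.3 in R150C cells without PTHrP and 200.5 with it. Both R150C values lay above both WT values, and in each line the PTHrP value was the higher. The signal was 2.88 times as high in the R150C line in control medium and 2.98 times as high under PTHrP. On the log2 scale the line difference was 1.29 (SE 0.18, adjusted p = 4.64e-06 by limma), the largest among the members tested. It passed in each of the 9 settings, the main one included, in which this probe set passed the filter, with values from 0.88 to 1.52.

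After PTHrP the Dlx2 signal was 1.74 times the control in WT cells and 1.80 times the control in R150C cells. Over both lines Dlx2 rose by 0.72 (SE 0.18, adjusted p = 0.0465 by limma). It was the single member called for PTHrP, where 0.124% of the probe sets tested were called higher and 0.831% lower, or 0.955% either way. The call held in 3 of the 9 settings in which the probe set was tested. The adjusted p was 0.535 without centring and 0.486 after quantile normalization, while the difference itself ran from 0.50 to 0.85 over the settings. The response of the R150C line exceeded that of the WT line by 0.12, less than the spread of such a difference between responses (SD 0.41). The beta-actin and Gapdh ratios were also higher on the PTHrP array than on the control array in both lines, as given above.

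Tnfrsf11b encodes osteoprotegerin, a secreted decoy that binds RANKL and so limits osteoclast formation. Its probe set 1449033_at read 65.7 and 70.9 in WT cells without and with PTHrP, then 178.0 and 166.5 in R150C cells in the same order. The groups of the lines did not overlap, and the line difference was 1.15 (SE 0.18, adjusted p = 3.16e-05 by limma). It passed in each of the 9 settings in which this probe set was tested. Its PTHrP differences, 0.14 (WT) and -0.08 (R150C), were both inside the spread between arrays.

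The other Tnfrsf11b probe set, 1418309_at, did not show the same pattern. It read 101.1 and 29.1 in WT cells, then 100.1 and 87.3 in R150C cells, so that a single array, WT with PTHrP, stood below the other 3. The lines differed by 0.00 in control medium and by 1.17 under PTHrP. Its line difference of 0.58 (SE 0.21, adjusted p = 0.0769 by limma) and its PTHrP difference of -0.74 (SE 0.21, adjusted p = 0.0908 by limma) did not pass. In WT cells with PTHrP the probe sets of this gene therefore gave 1.08 and 0.29 times the control signal. Where each probe set lies in the transcript was not analysed here.

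**Figure D2:**
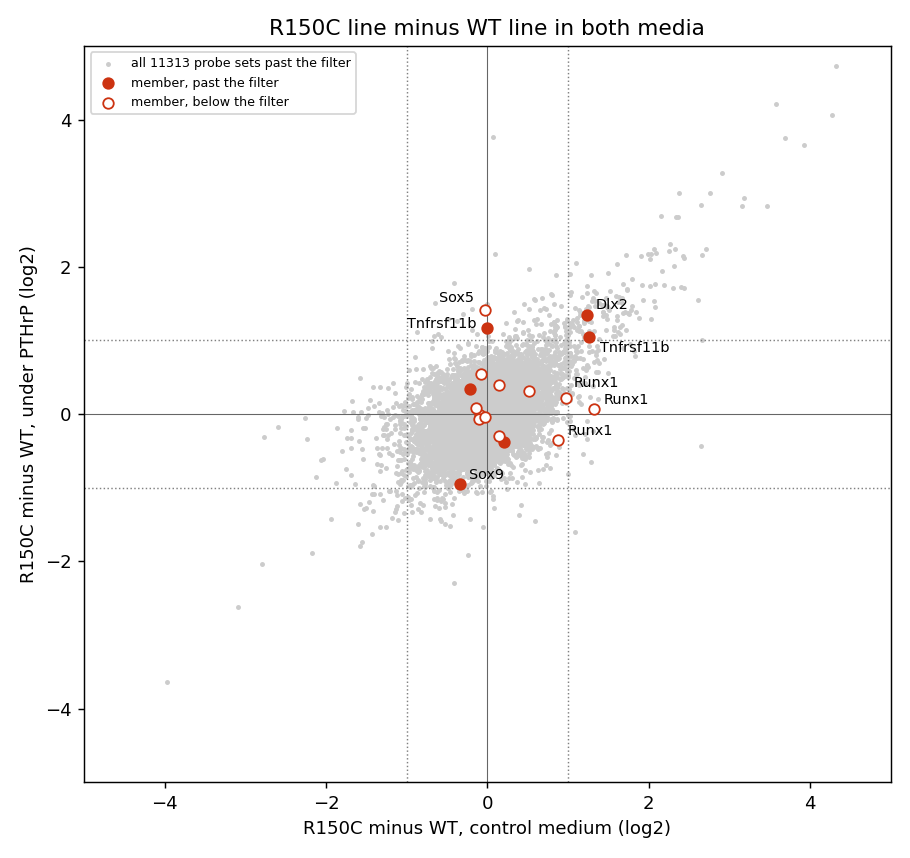
Difference between the R150C and WT lines in control medium (x) and under PTHrP (y), both log2, for the 11313 probe sets past the filter (grey) and the 18 member probe sets (red, filled where past the filter); dotted lines mark 2-fold. Dlx2 (1.23 and 1.35) and a Tnfrsf11b probe set (1.26 and 1.04) lie beyond 2-fold on both axes, while 1 Runx1 probe set (1.33) is beyond 2-fold on the x axis alone and 2 more (0.98 and 0.88) lie just short of it.

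Sox9 had 2 probe sets, both past the filter, which differed in how the lines compared. The first, 1451538_at, read 172.4 and 147.8 in WT cells, then 200.0 and 112.4 in R150C cells. The WT values lay between those of the R150C line, and the line difference of -0.09 (SE 0.19, adjusted p = 0.841 by limma) did not pass. The other, 1424950_at, read 56.6 and 70.1 in WT cells, then 40.8 and 29.5 in R150C cells, so both R150C values lay below both WT values. Its line difference of -0.65 (SE 0.19) passed with an adjusted p of 0.0239 by limma, but reached 0.123 without centring and 0.128 after quantile normalization, and passed in 3 of 8 settings. It lay just inside the filter (46.8), with a mean that stands for a signal of 47.4, as did Runx1 1452530_a_at at 48.4. The nearest members below the filter were Runx1 1452531_at at 32.8, Runx1 1422865_at at 27.2 and Sox5 1452511_at at 26.2.

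In both Sox9 probe sets the R150C PTHrP array gave the lowest of the 4 signals. PTHrP minus control was -0.74 and -0.31 in the R150C line for 1451538_at and 1424950_at, against -0.15 and 0.30 in the WT line. Over both lines neither PTHrP difference passed (-0.44 with an adjusted p of 0.43, and -0.01 with 0.998, by limma).

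Sox5 and Sox6, which encode the SoxD partners of Sox9, were at or near background. The Sox6 probe sets read 8.6, 5.9, 6.7 and 5.4 (1426018_a_at) and 4.3, 1.6, 2.2 and 3.1 (1427677_a_at) in the order WT control, WT PTHrP, R150C control, R150C PTHrP. Of the 4 Sox5 probe sets, 1423500_a_at and 1432189_a_at read between 1.0 and 6.7. All of these values lie within the range of the Bacillus controls on the same array, so no order among the arrays is read from them. The Sox5 probe set 1452511_at read 23.1, 21.5, 27.0 and 34.5. The Sox5 probe set 1432190_at read 28.3, 4.3, 27.2 and 39.4, with the WT PTHrP array low against the other 3, as for Tnfrsf11b 1418309_at. On the WT PTHrP array, 1452511_at and 1432190_at (21.5 and 4.3) lie below the highest Bacillus control (26.4). None of the 6 was tested.

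Runx1 encodes a Runt domain factor of blood and of early skeletal progenitors, and was covered by 5 probe sets. The single one past the filter, 1452530_a_at, read 65.9 and 32.2 in WT cells, then 53.9 and 46.2 in R150C cells. These overlap, and neither the line difference (0.06, SE 0.19, adjusted p = 0.90) nor the PTHrP difference (-0.44, SE 0.19, adjusted p = 0.447) passed limma's test. The other 4 were below the filter and highest on the R150C control array. There 1452531_at read 61.1 against 26.2, 30.7 and 21.2 on the WT control, WT PTHrP and R150C PTHrP arrays. In the same order, 1422865_at read 39.7 against 23.1, 19.5 and 29.2, 1427650_a_at read 25.7 against 5.3, 2.8 and 6.3, and 1422864_at read 28.3 against 1.8, 2.2 and 3.5. In these last 2 probe sets the other 3 arrays lay within the range of the Bacillus controls, while the R150C control value was above the highest Bacillus control of its own array (20.5).

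Set against the WT control array, the R150C control array was higher in 4 of 5 Runx1 probe sets, with differences from -0.22 to 1.33 (median 0.88), where 49.3% of all probe sets that are not controls were higher. PTHrP minus control in the R150C line was below 0 in 5 of 5, from -0.16 to -1.17, where 54.9% of all were. In the WT line the same difference ran from -0.71 to 0.20, with 3 of 5 below 0, where 46.7% of all were. These probe sets are of 1 gene and share the R150C control array, so they are not replicates, and the pattern has no test.

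Alpl encodes tissue-nonspecific alkaline phosphatase, an early osteoblast enzyme that allows mineral to form. Its probe set, 1423611_at, read 27.7 and 11.9 in WT cells, then 25.1 and 25.7 in R150C cells, below the filter. The WT PTHrP array was the lowest, with a difference of -0.60 in the WT line against 0.03 in the R150C line. Its value of 11.9 lies below the highest Bacillus control of that array (26.4), so no response to PTHrP is read from it. Pth1r, the mouse gene of the receptor itself, read 3.9, 3.3, 3.4 and 3.2, inside the background on each array. Whether its probes match the transfected receptor was not analysed here.

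By count, 3 of the 6 member probe sets tested passed for line, Dlx2 and 1 of Tnfrsf11b higher and 1 of Sox9 lower, where 9.94% of all probe sets tested were called either way (5.4% higher, 4.54% lower). The count was 2 without centring and after quantile normalization. The median line difference of the 6 was 0.32, against -0.05 over all probe sets tested. On the log2(signal + 16) scale, where 2-fold means a difference of 1, 3 of all 18 were 2-fold or more above WT in R150C cells in control medium (Dlx2, 1 Tnfrsf11b and 1 Runx1 probe set), where 1.59% of all probe sets on the arrays that are not controls were, and 4 were under PTHrP (Dlx2, both Tnfrsf11b and 1 Sox5 probe set), where 1.74% were. None was 2-fold lower on that scale in either medium, where 1.91% and 1.14% of all probe sets were. After PTHrP, on the same scale, 2 of 18 were at least 2-fold lower in the WT line (1 Tnfrsf11b and 1 Sox5 probe set), where 2.09% of all were, and 2 in the R150C line (both of Runx1), where 0.698% were. None was 2-fold higher in either line, where 0.464% (WT) and 0.362% (R150C) of all were. Ratios of the signals themselves pass 2-fold more often, mostly in dim probe sets, and Sox9 1424950_at, which was tested, stood at 0.42 times the WT signal under PTHrP. The members were chosen with results of these arrays known, so these shares are a description.

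**Figure D3:**
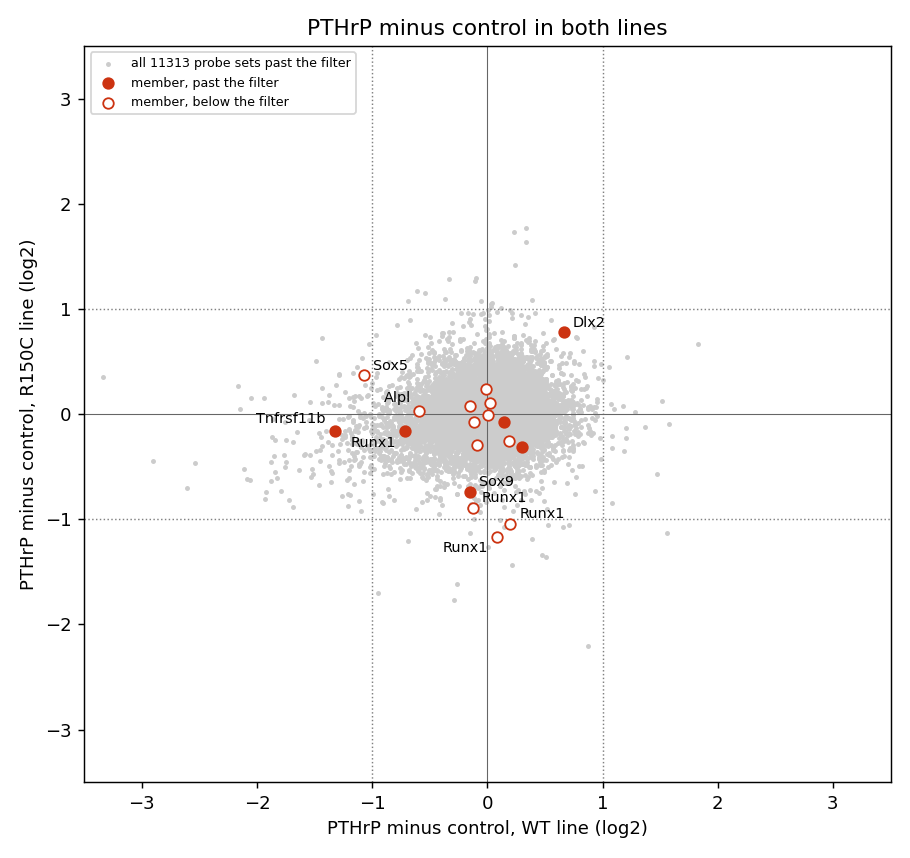
Difference between PTHrP and control in the WT line (x) and the R150C line (y), both log2, for the 11313 probe sets past the filter (grey) and the 18 member probe sets (red, filled where past the filter); dotted lines mark 2-fold. Dlx2 (0.66 and 0.78) is the labelled member on the upper right, a Tnfrsf11b probe set (-1.32) and a Sox5 probe set (-1.07) lie far left, and 3 Runx1 probe sets (-0.89 to -1.17) lie at the bottom.

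The probe sets with the profile over the 4 arrays nearest to Dlx2 belonged to Hip1r (Euclidean distance 0.36 on the log2 scale, among 10421 probe sets of other genes), Socs3 (0.39) and Cflar (0.48). Hip1r 1425553_s_at read 37.2 and 85.4 in WT cells, then 120.8 and 172.6 in R150C cells. Those nearest to Tnfrsf11b 1449033_at belonged to Tsc22d1 (0.04), Ankrd28 (0.05) and Klhdc8a (0.06), and Tsc22d1 1425742_a_at read 1130.4 and 1157.9 in WT cells, then 2688.0 and 2497.8 in R150C cells. A likeness over 4 arrays describes these arrays alone.

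Among Runx partners, 16 probe sets of 11 genes were tested, of which 5 were higher in the R150C line, 1 was lower and 10 did not pass, where 5.4% of all probe sets tested were called higher and 4.54% lower. Cbfb, the shared subunit that Runt factors need to bind DNA, read 608.6 and 462.5 in WT cells, then 869.1 and 1009.3 in R150C cells (log2 difference 0.79, adjusted p = 0.00448 by limma). Tle1, a Groucho corepressor (0.71), the coactivator Wwtr1 (0.61), and Twist2 (0.58) and Twist1 (0.58), which restrain Runx2, were the others higher, and Zfp521, a zinc finger antagonist of Runx2, was lower (-0.72). Another probe set of Tle1 (0.24) and 2 of Wwtr1 (0.39 and 0.18) did not pass. None of these 6 calls held in all 4 scalings, where their largest adjusted p by limma lay between 0.0552 (Zfp521) and 0.0992 (Twist2). The list's median difference was 0.33, against -0.05 over all probe sets tested.

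Of 8 tested probe sets of other Sox genes, 2 of Sox4 were lower in the R150C line and 1 of Sox10 was higher, where 4.54% and 5.4% of all were, and none held in all 4 scalings. Sox4, a SoxC factor of mesenchymal progenitors, had 6 probe sets, whose line differences ran from -0.29 to -1.39. The last of these, 1419157_at, rests on the WT control array, which read 321.7 against 56.7, 39.2 and 49.9 on the WT PTHrP, R150C control and R150C PTHrP arrays. Sox10 1424985_a_at read 30.7 and 55.3 in WT cells, then 91.1 and 81.7 in R150C cells. The 6 probe sets of the other Dlx genes were all below the filter, with a summed signal between 127.8 and 144.0, so Dlx2 was the one Dlx gene tested.

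Of 3 tested probe sets of cartilage matrix genes, out of 27 probe sets of 20 genes, none passed for line. Of all probe sets tested 9.94% did, so the absence of calls among 3 is near this share. Col2a1, the main cartilage collagen and a Sox9 target, read 1105.9 and 1384.9 in WT cells, then 1481.0 and 1153.9 in R150C cells (1450567_a_at, log2 difference 0.07, SE 0.19, adjusted p = 0.885 by limma). Of 13 tested probe sets of osteoblast regulators and matrix, 1 was lower in the R150C line, where 4.54% of all were, that of the Wnt coreceptor Lrp6, which read 148.0 and 220.5 in WT cells, then 50.2 and 91.6 in R150C cells (-1.23, adjusted p = 9.49e-06 by limma). Of the 12 that did not pass, Msx2 (0.44) and Sparc (-0.42) had the largest differences.

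Of 6 tested probe sets of genes that set phosphate and pyrophosphate around mineralising cells, 2 were higher and 1 lower in the R150C line, where 5.4% and 4.54% of all were. Slc20a1, a sodium-phosphate cotransporter, read 388.5 and 546.6 in WT cells, then 1309.5 and 1249.7 in R150C cells (1.43, adjusted p = 1.35e-06 by limma). Ank, which moves the mineral inhibitor pyrophosphate out of cells, read 935.7 and 823.3 against 2150.0 and 1995.0 (1.21, adjusted p = 1.18e-05 by limma). Slc20a2 had 1 probe set lower (1451768_a_at, -0.61, adjusted p = 0.0459 by limma, up to 0.231 over the scalings) and another at -0.04 that did not pass. The call of 1451768_a_at rests on the WT control array. It read 213.3 and 120.4 in WT cells, then 91.3 and 110.3 in R150C cells. Its line difference was -1.08 in control medium and -0.14 under PTHrP. Mgp, a mineral inhibitor, differed by 0.51 and did not pass.

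Of the genes that act with or beside osteoprotegerin on osteoclasts, 7 probe sets of 3 genes were tested. The list was chosen with earlier results of these data known, so its count is a description. In the R150C line 5 of the 7 were higher, each in all 4 scalings, where 5.4% of all were called higher. They belong to Ptgs2 (2.06 and 1.94), the prostaglandin synthase gene, to Csf1 (1.84 and 1.71), the macrophage and osteoclast growth factor gene, and to Il6 (1.27). The Il6 probe set read 27.5 and 22.3 in WT cells, then 89.2 and 77.2 in R150C cells. Its WT PTHrP value is below the highest Bacillus control of that array (26.4), and its difference ran from 0.72 to 1.69 over the settings. A further 2 probe sets of Csf1, at 0.25 and 0.25, did not pass. Ptgs2 1417263_at was lower after PTHrP (-0.99, adjusted p = 0.00395 by limma, up to 0.535 over the scalings), while 1417262_at differed by -0.33 and did not pass. The probe sets of the osteoprotegerin ligands Tnfsf11 and Tnfsf10 were below the filter.

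Of 13 tested probe sets of osteopontin receptors, 3 were higher in the R150C line, each in all 4 scalings, where 5.4% of all were called higher. Itga5, the alpha subunit of the fibronectin receptor, had 2 of them (2.08 and 1.15), and Cd44, the hyaluronan and osteopontin receptor, had 1 (1.14). A second Cd44 probe set, 1452483_a_at, read 228.5 and 88.1 in WT cells, then 226.8 and 154.8 in R150C cells, did not pass for line (0.34), and was lower after PTHrP (-0.84, adjusted p = 0.0213 by limma). Itgav 1421198_at, for a vitronectin receptor subunit, was lower after PTHrP as well (-1.07, adjusted p = 0.00291 by limma), while Itgav 1452784_at differed by -0.03. Both PTHrP calls reached 0.535 over the scalings. Of all probe sets tested, 0.831% were called lower after PTHrP. None of 9 tested probe sets of PTH receptor partners, Gs and arrestin genes among them, passed for line or PTHrP. Over all probe sets tested the shares called were 9.94% for line and 0.955% for PTHrP, so no call among 9 is near them. The largest line differences of the partners were those of Slc9a3r1 (-0.39 and -0.38).

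**Figure D4:**
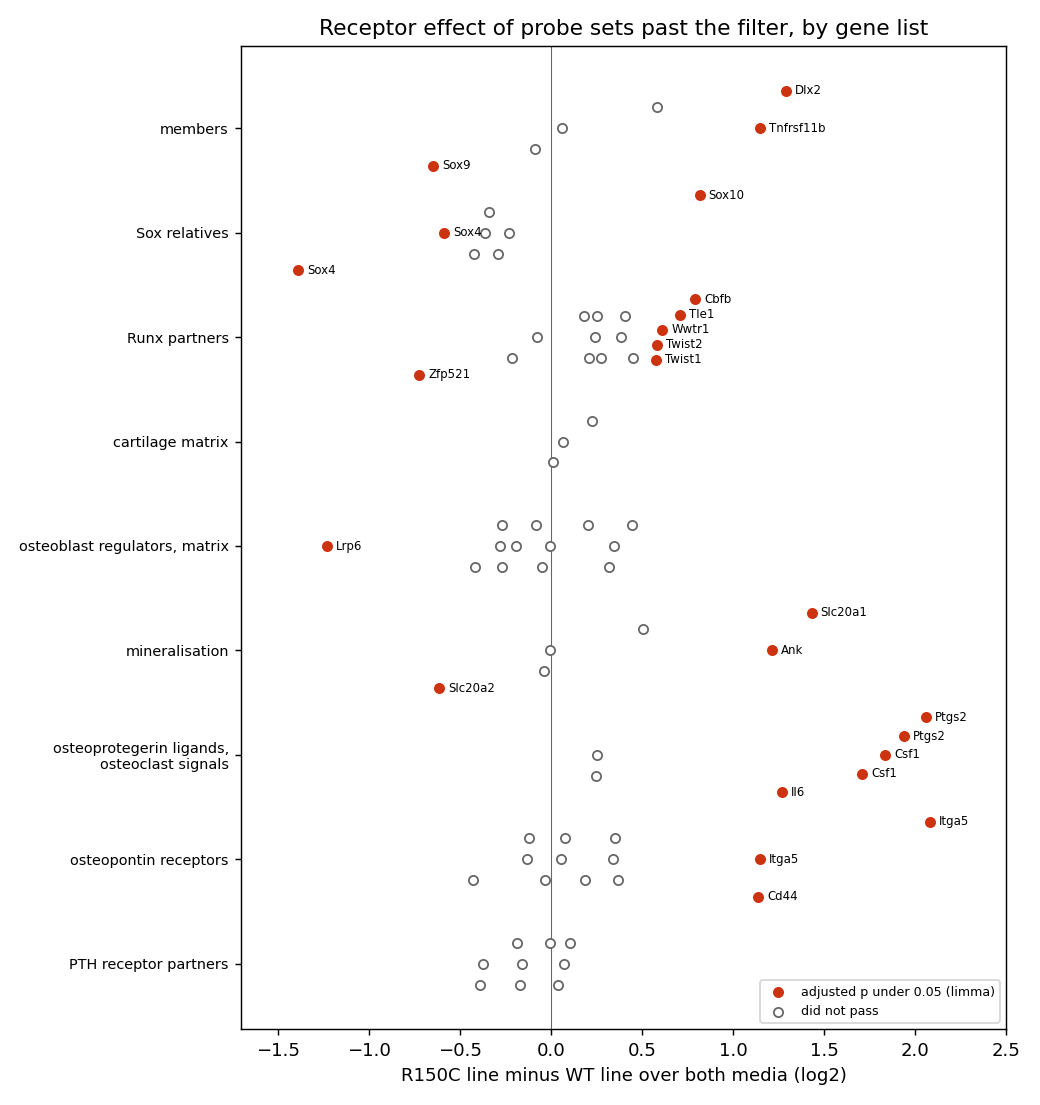
Difference between the R150C and WT lines over both media (log2, limma's additive fit) for each probe set past the filter in the members and 8 related gene lists, filled red where the adjusted p was under 0.05. The 7 osteoclast signal probe sets, of 3 genes, reach from 0.25 to 2.06 with 5 filled. The 3 cartilage matrix probe sets lie between 0.01 and 0.22 and are open. No call among 3 is near the share of 9.94% over all probe sets tested.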

How the data were processed

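The values are fluorescence intensities on a linear scale, deposited by the authors as 1 column per array and the submitters' processing notes name Affymetrix Expression Console. Its version, its algorithm and a genome build were not given in the sources used here. Detection calls were not used. A mean trimmed by 2% at each end was equal in the 4 columns (150.0 on rounding to the first decimal), so the deposited columns share a common scale.

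Of 22626 probe sets other than controls, 20380 had 1 gene symbol in the platform annotation, 691 several and 1555 none or no listing. Intensities were turned into log2(signal + 16), filtered at the median of the mean, and centred on the median of the probe sets kept. The fit was limma 3.58.1 in R 4.3.3 (additive model, eBayes). It was run on simulated data with line effects and normal noise of equal spread for all probe sets. Such data do not show how the fit treats values that rest on a single array. The 4 scalings are this centring, centring on all probe sets, the deposited values without centring, and quantile normalization. Pseudocounts of 1 and 64, no filter, the 75th percentile, the brightest probe set of each gene and an intensity trend were the other alternatives.

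The members and lists were chosen with earlier results of these data known, so their counts beside the shares over all probe sets are a description. Named were all member probe sets, list probe sets that passed, at most 2 others per list, and the 3 nearest profiles of members that passed. Other probe sets of a gene so named were added outside this rule, after their values were seen, to show where probe sets of 1 gene disagree.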

Additional observations from a re-analysis of the deposited data

Results flagged for a closer look

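The Sox9 probe set 1424950_at moved in opposite directions after PTHrP in the lines, up by 0.30 in the WT line and with a difference of -0.31 in the R150C line, each close to the spread of 0.29 between 2 arrays. The difference between the responses was -0.61, and with 1 array per group it was not tested. In Sox9 1451538_at the same difference was -0.59, with both responses below 0.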

How the results depend on the processing

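With 1 array per group no array could be left out of a contrast, and a fit to 3 arrays leaves no residual degrees of freedom. No paired analysis was possible because each group holds 1 array without a replicate number. No direction of a called value reversed in any alternative run. Centring on all probe sets moved the median PTHrP difference in the WT line from 0.06 to 0.18 and is the alternative with the largest such shift among the scalings. For line, limma called 611 probe sets higher and 514 lower. Without centring these were 318 and 137, after quantile normalization 377 and 179, at a 75th percentile filter 362 and 213, with the brightest probe set of each gene 342 and 259, and without a filter 226 were lower; members called went from 3 to 0 at the 75th percentile because no member passed that filter, so none was tested there. For PTHrP, limma called 14 higher and 94 lower. These were 3 and 45 with a pseudocount of 1, 3 and 34 with 64, 1 and 6 without a filter, 1 and 12 at the 75th percentile, 36 and 157 with an intensity trend, and 0 and 0 without centring, after quantile normalization and with the brightest probe set, where 810, 812 and 345 had an unadjusted p under 0.05 by limma. Members called for PTHrP were 0 in each of these except the trend, with 2 of 6. At an unadjusted p under 0.05 by limma, 4 of 6 members passed without centring and 3 of 6 after quantile normalization, where 810 and 812 of 11313 did. With pseudocounts of 1 and 64, 4 and 3 of 6 passed, where 987 and 933 of 11313 did. Without a filter 2 of 18 passed, where 1713 of 22626 did. With the brightest probe set 2 members passed, where 345 of 6197 did, and none was tested at the 75th percentile. These counts are a description. Probe sets 2-fold apart between the lines numbered 397 in control medium and 333 under PTHrP, and 196 and 167 with a pseudocount of 64, 776 and 648 without a filter, 186 and 168 at the 75th percentile, and 186 and 179 with the brightest probe set. Between PTHrP and control they numbered 193 in WT cells and 34 in R150C cells, and 306 and 72 with a pseudocount of 1, 71 and 6 with 64, 514 and 234 without a filter, 63 and 7 at the 75th percentile, and 24 and 9 with the brightest probe set. The cause of these shifts was not tested. The number of probe sets tested was 22626 without a filter, 5657 at the 75th percentile and 6197 with the brightest probe set. The prior of limma differed as well, with 30.9 degrees of freedom in the main fit, 6.3 without centring and 7.3 after quantile normalization. With an intensity trend it had 4063.6. The median SE was 0.183 in the main fit and 0.163 both without centring and after quantile normalization. Of the values of single probe sets, 741 kept direction and side of the threshold or moved by less than the spread, 68 no longer passed, 2 newly passed and 44 moved further. Signals inside the range of the Bacillus controls limit what can be read for Sox5, Sox6 and Pth1r. On some arrays they also limit Alpl and the Runx1 probe sets below the filter.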
